A study of Mus musculus with 15 samples.

Results

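The immunoglobulin features of the count table are the constant (C), variable (V), joining (J) and diversity (D) gene segments of the antibody heavy chain, kappa and lambda loci. They were chosen by the annotated type in the name of each row, without use of any measured value, and numbered 268 of the 47729 features. There were 13 C, 218 V, 14 J and 19 D features, and 4 annotated as leader-containing V segments. The heavy chain locus lies on mouse chromosome 12, kappa on chromosome 6 and lambda on chromosome 16.

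Antibody genes are assembled in developing B cells, which join V, D and J segments of the heavy chain and V and J segments of a light chain, so that the members of a B cell clone share their rearrangements. The C gene sets the isotype (Ighm for IgM, Ighd for IgD, the Ighg genes for IgG, Igha for IgA and Ighe for IgE). Class switching replaces Ighm with another heavy chain C gene, and plasma cells, the antibody-secreting end stage, hold immunoglobulin transcripts at very high levels. Macrophages are not known as a source of antibody, but they bind it through Fc receptors.

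RNA was measured in bulk in small sorts of F4/80+ CD64+ cells, surface markers of macrophages, from the aorta of female Apoe-/- mice, which lack apolipoprotein E and develop atherosclerosis. All mice were on a high fat diet for 4 weeks, and both groups carry this genotype and diet. The groups differ in the sort label alone, Olfr2- or Olfr2+, for an olfactory receptor. Cells came from aortas of 4 mice that had been pooled, age is not given in the sources used here, and the sorts are described as technical replicates, so any p-value speaks only to the scatter of these samples, and that scatter may be technical. The table has 15 columns. Those labelled Olfr2- are 1A, 3A, 3B, 4A and 4B, and those labelled Olfr2+ are 2A to 2D, 3A to 3D, 4A and 4B, where the number was read as a sample and the letter as a repeat. This gives 3 numbered samples in each group.

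Column totals divided the libraries into sets that matter for every value below. The deeper columns, as they are called here, are 7 of the Olfr2+ label (all 4 of sample 2, with 3A, 3B and 3C), and each summed to between 76.0 and 95.6 M (M, 1e+06 counts). The other 3 Olfr2+ columns held 29.9 to 37.6 M and the 5 Olfr2- columns 30.5 to 53.2 M. Protein-coding features took 94.6 to 97.5% of counts in the deeper columns and 78.5 to 85.6% in the other 8. The Olfr2 transcript went against the sort label: Olfr2- samples 1, 3 and 4 held 76, 34 and 35 of its counts, and Olfr2+ samples 2, 3 and 4 held 1, 9 and 8. The groups below are therefore the libraries labelled Olfr2- and Olfr2+. The 6 macrophage markers looked at (Adgre1, Fcgr1, Csf1r, Cd68, Lyz2 and Mertk) had counts in every column, and together ran from 926 to 8218 counts per 1e+06 of the column total (CPM) in the Olfr2- columns, 1793 to 2909 CPM in Olfr2+ 3D, 4A and 4B and 6131 to 11736 CPM in the deeper columns. Like Olfr2, the 1102 olfactory receptor genes together were higher under Olfr2-. They were at 240 ± 84.8 CPM there (SD, n = 3 numbered samples) and 28.4 ± 22.2 CPM in Olfr2+.

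The C genes carried most of the signal, and several are close in sequence, which bears on how reads can be assigned. The 4 Ighg genes are shown because the columns differed in which of them led. Sequences are those of GENCODE M21 transcripts (build GRCm38), 5′ to 3′, here the first 90 bases of each, and capitals mark bases that differ from Ighg2b.
Ighg2b: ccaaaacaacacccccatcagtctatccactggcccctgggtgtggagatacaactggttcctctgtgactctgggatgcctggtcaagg
Ighg2c: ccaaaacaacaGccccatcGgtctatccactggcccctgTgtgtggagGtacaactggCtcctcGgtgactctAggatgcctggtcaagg
Ighg1: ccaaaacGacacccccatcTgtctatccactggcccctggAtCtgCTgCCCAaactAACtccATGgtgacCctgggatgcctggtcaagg
Ighg3: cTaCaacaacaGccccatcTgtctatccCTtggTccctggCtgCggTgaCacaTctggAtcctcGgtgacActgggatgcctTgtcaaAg
Ighg2c differed from Ighg2b at 7 of these bases, Ighg1 at 17 and Ighg3 at 17. Over the first 290 bases the identity of pairs of Ighg genes ran from 78.3% (Ighg2c and Ighg3) to 88.3% (Ighg1 and Ighg2b). The lambda C genes Iglc2 and Iglc3 are closer still, 94.1% identical over their transcripts, and differ at 5 of their first 90 bases, marked by capitals in the second line.
Iglc2: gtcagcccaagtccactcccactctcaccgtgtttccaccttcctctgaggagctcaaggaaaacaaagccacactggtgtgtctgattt
Iglc3: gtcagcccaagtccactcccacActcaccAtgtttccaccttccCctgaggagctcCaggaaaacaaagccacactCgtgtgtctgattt
Counts of Iglc2 and Iglc3 are uncertain for this reason. An exon of Iglj2 overlaps Iglc2, and exons of Iglc3 overlap those of the antisense gene 2010309G21Rik, whose reads cannot be told apart without strand.

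Immunoglobulin RNA was present in every library and its total separated the deeper columns from the rest. Summed over the 268 features it was 40387, 48039, 23631, 27372 and 40819 CPM in Olfr2- columns 1A, 3A, 3B, 4A and 4B. It was 37860, 49858 and 61105 CPM in Olfr2+ columns 3D, 4A and 4B. In the deeper Olfr2+ columns it ran from 241 CPM (2C) to 5565 CPM (3A), with a median of 482. The 3 shallower Olfr2+ columns thus overlapped the Olfr2- columns, and all 7 deeper columns lay below both. Averaged over numbered samples, Olfr2- stood at 37499 ± 3791 CPM (SD, n = 3) and Olfr2+ at 20680 ± 29766 CPM, where samples 2, 3 and 4 were at 314, 6886 and 54840. The protein-coding share, which leaves out the immunoglobulin features, was higher in all deeper columns than in the other 8. Macrophage markers overlapped between the depth sets: Olfr2- 4B, at 8218 CPM, lay above deeper columns 2D (6131 CPM) and 3B (7497 CPM). The part of either in these totals was not tested. Depth set and numbered sample cannot be told apart in Olfr2+ 2 and 4, and only sample 3 held columns of both sets. In bulk RNA, fewer cells of a type and less RNA per cell cannot be told apart.

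Few features made up this total. C genes took 96.5 to 99.9% of the immunoglobulin counts of a column. Igkc, the kappa C gene, and Ighm together took 74.3 to 98.3%. V features together were at 58.1 to 248 CPM in the 8 columns below 60 M counts. In the deeper columns they were at 0.676 to 168 CPM. Of the 268 features, 24 had no count in any column, 29 reached 100 counts in at least 1 column, and 10 had a count in every column. Those 10 were the C genes Igkc, Ighm, Igha, Ighg2b, Ighg2c, Ighg3, Ighd, Iglc2 and Iglc3 and a single V feature, Igkv5-39.

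**Figure D1:**
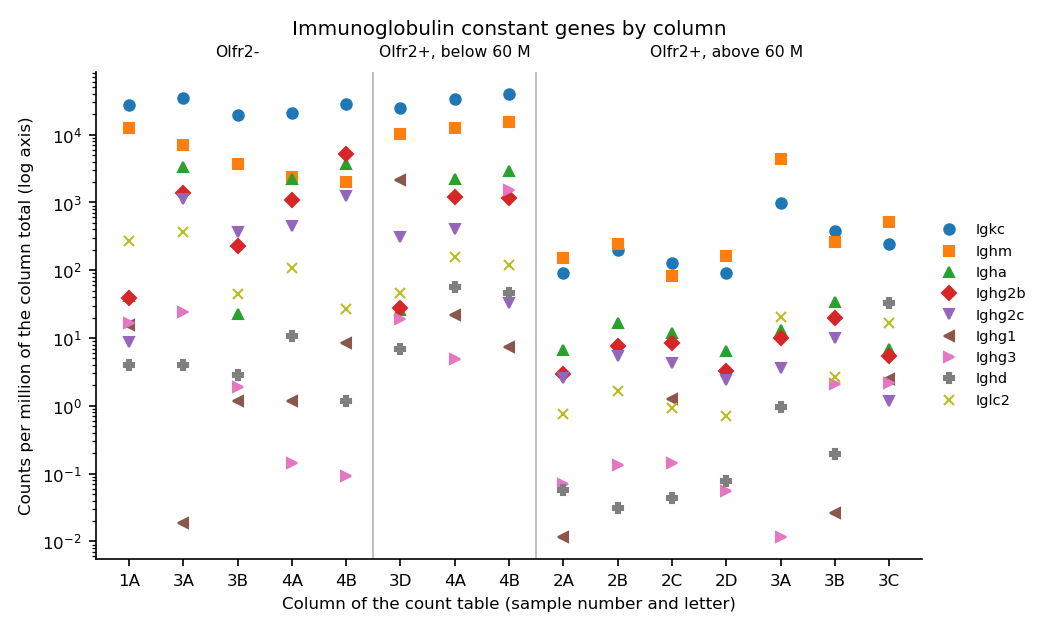
Level in CPM (log axis) of 9 C genes in each of the 15 columns, grouped by label and depth; points at 0 are not drawn. Igkc was at 19217 CPM or more in each column below 60 M counts and at 997 CPM or less in the deeper ones, and Ighg1 and Ighg3 each stand out in a single column.

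Light chain RNA was nearly all kappa. Igkc was at 27174, 34328, 19217, 20959 and 28325 CPM in Olfr2- columns 1A, 3A, 3B, 4A and 4B, and at 24889, 33252 and 39601 CPM in Olfr2+ columns 3D, 4A and 4B. In the deeper columns it ran from 90.3 (2D) to 997 CPM (3A), with a median of 200.1. Igkc differed 102-fold between Olfr2+ 3C and 3D, which carry the same library name but fall in different depth sets. Its share of light chain C counts was 91.3 to 99.8% over the 15 columns. The column with the most lambda was Olfr2+ 3C, at 8.70%, while the other 14 were between 0.228 and 2.42%. By counts Iglc2 led the lambda C genes in 12 columns and Iglc3 in 3. Iglc2 ran from 0.709 to 362 CPM, Iglc3 from 0.372 to 252 CPM and Iglc1 from 0 to 34.9 CPM. Iglc4 had 7 counts, all in Olfr2- 4B.

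IgM was the main isotype of most libraries, but not of all. Shares of heavy chain C counts are given next, not corrected for the length of each gene's exons. Ighm took 72.9 to 99.4% of them in the 10 Olfr2+ columns. In the Olfr2- columns its share was 99.0% in 1A, 54.7% in 3A, 85.6% in 3B, 38.5% in 4A and 16.6% in 4B. The Olfr2- libraries were therefore spread over most of the range, and 1A and 3B overlapped the Olfr2+ libraries. Per numbered sample the mean share was 61.3 ± 36.9% (SD, n = 3) in Olfr2- and 83.9 ± 8.27% in Olfr2+. The widest exact Clopper-Pearson 95% interval of such a share in a column was 1.69 percentage points, and such intervals cover counting error only, since reads amplified by PCR are not independent molecules.

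The balance of Ighm and Igkc separated the depth sets. Counts per kilobase of exon were compared, because the exons of Ighm sum to 1886 bases and those of Igkc to 532. The ratio of Ighm to Igkc on this scale was 0.020 to 0.130 in the 5 Olfr2- columns and 0.105 to 0.115 in Olfr2+ 3D, 4A and 4B. In the deeper Olfr2+ columns it was 0.178 to 1.23, above all 8 others. Olfr2+ 3A had the highest, with 371545 Ighm counts (4342 CPM) against 85341 Igkc counts (997 CPM). That column stood apart from the other deeper columns in Ighm, which were at 81.9 to 506 CPM. Jchain, which encodes the chain that joins IgM and IgA polymers and is made by plasma cells, was also set against Igkc. Its counts were 0.0665 to 0.281 of those of Igkc, and in the deeper columns 0.157 to 0.244.

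Ighd, which naive B cells co-express with Ighm, was low. It had 38 to 441 counts (1.19 to 10.5 CPM) in the Olfr2- columns. It reached 55.7 and 47.0 CPM in Olfr2+ 4A and 4B and 33.4 CPM in Olfr2+ 3C, and was at 0.031 to 6.91 CPM in the other 7 Olfr2+ columns. In Olfr2+ 3C it made up 5.98% of heavy chain C counts, against at most 0.342% in the other 14 columns. This was also the column with the largest lambda share.

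IgG RNA came from a different gene in different libraries. Ighg2b was at 5109 CPM in Olfr2- 4B, where it took 42.2% of heavy chain C counts, and at 39.4, 1398, 225 and 1090 CPM in 1A, 3A, 3B and 4A. It was at 1222 and 1146 CPM in Olfr2+ 4A and 4B, and at 2.92 to 27.4 CPM in the other 8 Olfr2+ columns. Ighg2c was at 8.73 to 1225 CPM in Olfr2- and 1.20 to 405 CPM in Olfr2+. The labels overlapped for both genes.

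Ighg1 and Ighg3 were each concentrated in a library. Ighg1 had 73411 counts (2169 CPM) in Olfr2+ 3D, 17.1% of the heavy chain C counts there, and 0 to 827 counts in the other 14 columns. Ighg3 had 45406 counts (1520 CPM) in Olfr2+ 4B, 7.25% of heavy chain C counts, and 1 to 1281 counts elsewhere. Repeats of the same numbered sample did not share these peaks. Olfr2+ 3A, 3B and 3C had 0, 2 and 188 counts of Ighg1, and Olfr2+ 4A had 187 counts of Ighg3, 305-fold less than 4B by CPM.

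IgA showed the same unevenness. Igha was at 3361, 2237 and 3751 CPM in Olfr2- 3A, 4A and 4B, but at 42.2 CPM in 1A and 22.9 CPM in 3B. The repeats 3A and 3B, which carry the same library name, thus differed 147-fold, whereas their Igkc differed 1.79-fold. Olfr2+ 4A and 4B were at 2211 and 2935 CPM, and the other 8 Olfr2+ columns at 6.54 to 33.5 CPM. Igha counts were 0.0724 to 0.0924 of those of Igkc in the 4 columns of Olfr2+ 2 and in 3B. In 3A and 3C, which are also deeper columns, they were 0.0130 and 0.0285. The 8 columns below 60 M spanned 0.00104 to 0.132, with Olfr2+ 4A and 4B at 0.0665 and 0.0741. Ighe was nearly absent, with 38, 0, 7, 45 and 44 counts in the Olfr2- columns and 7 counts over the 10 Olfr2+ columns.

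**Figure D2:**
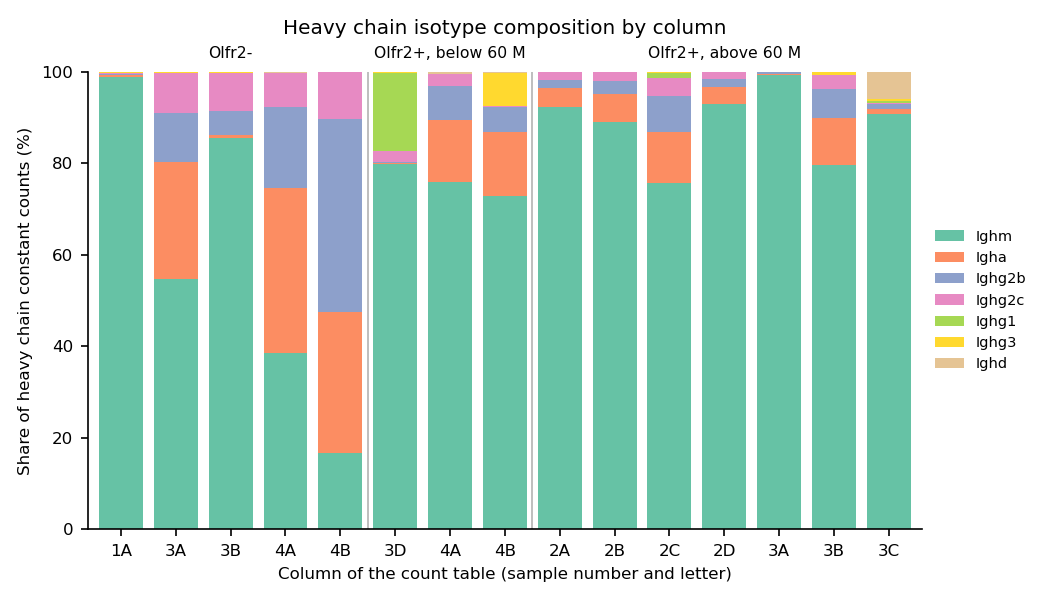
Share (%) of the heavy chain C counts taken by each isotype gene in each column, grouped by label and depth; Ighe, at most 0.0401%, is not drawn. Ighm leads in all but Olfr2- 4B, where Ighg2b took 42.2%, and Ighg1 (Olfr2+ 3D) and Ighg3 (Olfr2+ 4B) each take a visible share in 1 column.

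The labels were compared over 3 numbered samples each, with edgeR's quasi-likelihood test on counts summed per sample and adjusted over all 24362 features that passed the expression filter. Of the 268 immunoglobulin features 30 passed that filter (11 C, 15 V and 4 J), and since a feature can pass through the group where it is high, these 30 do not stand for all. None was higher in Olfr2+ at an adjusted p under 0.05, against 1.12% of all features tested, and 1 was lower, against 0.46%. Without adjustment, 5 were higher and 8 lower at p under 0.05, where 7821 of the 24362 features had such a p. DESeq2 called 4 higher and 14 lower of 101 immunoglobulin features tested, and 3893 and 2558 of all 31244. With limma-voom 0 and 0 were called, and 10 of the 30 had p under 0.05 unadjusted, as did 7537 of all 24362. As a median, the 30 had a log2 fold change of -0.57, beside 0.24 over all features. Scaling by library totals in place of TMM factors moved the latter to -0.88 and the former to -1.34.

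The lower feature was Igkv4-50, a kappa V segment. Its counts were 19 in Olfr2- 1A, 26 in Olfr2- 3B and 16 in Olfr2- 4B, 1 column from each sample, and 0 in the other 2 Olfr2- columns and in all 10 Olfr2+ columns. Over the group this was 0.322 CPM in Olfr2-. The edgeR adjusted p was 0.0396, with all 3 samples labelled Olfr2+ below all 3 labelled Olfr2-. It was past the threshold in 4 of 14 alternatives, with adjusted p from 0.0039 to 0.640, and lost the call when any of the 6 samples was left out. Each of the 7 features without overlap between the labels was a V feature and lower in Olfr2+, 23.3% of the 30, and 0 were higher. Among all features tested, 29.8% were lower without overlap and 6.21% higher.

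C genes did not pass the test in either direction. Igkc had a log2 fold change of -0.20 (SE 0.79) and Ighm of 0.58 (SE 0.79), and the direction of each depended on the setting: Igkc was at 1.00 in the columns below 60 M, and Ighm at -0.31 with scaling by library totals and -0.98 without Olfr2+ sample 4. Igha was at -0.25 (SE 1.20), Ighg2b at -0.90 (SE 1.22) and Ighg2c at -1.75 (SE 1.20), with Igha turning to 0.36 in the columns below 60 M and Ighg2b to 0.36 without Olfr2- sample 4. The largest were Ighg1, at 4.99 (SE 1.66, edgeR adjusted p = 0.0794), and Ighg3, at 5.15 (SE 1.80, edgeR adjusted p = 0.0860). Each rests on 1 Olfr2+ sample: Ighg1 was at 1.344 without sample 3 and Ighg3 at -1.43 without sample 4. Without sample 4 Igkc was at -2.74, Igha at -5.68 and Ighg2b at -5.87. For Ighg1 the numbered samples were at 15.7, 0.447 and 4.33 CPM in Olfr2- and 0.319, 270.0 and 15.6 CPM in Olfr2+, so the labels overlapped. Ighd was at 2.99 (SE 1.62), Iglc1 at 1.85 (SE 1.74), Iglc2 at -1.07 (SE 1.19) and Iglc3 at -0.90 (SE 1.24). Iglc1 turned to -4.25 without Olfr2+ sample 4.

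In the columns below 60 M counts, where 2 Olfr2+ samples (3D, and 4A with 4B) stood against the 3 Olfr2- samples, edgeR called 0 immunoglobulin features of 62 tested in either direction. It also called 0% higher and 0% lower of all 29989 features. Unadjusted, 9 of the 62 were higher and 7 lower at p under 0.05, as were 3127 of all features in either direction. DESeq2 called 6 higher and 1 lower of 16 immunoglobulin features tested, and 996 and 210 of all 13333. With limma-voom 0 and 0 were called, and 7 of 62 had p under 0.05 before adjustment, as did 1343 of all. Without overlap 3 were higher and 15 lower (4.84 and 24.2% of 62), beside 4.06% and 29.2% of all features. The 3 were Ighd, Ighg3 and Igkv5-39. Ighm had a log2 fold change of 1.70 (SE 0.50) and Igkc of 1.00 (SE 0.30), each with an edgeR adjusted p of 0.411, while the median over all features was -0.43. Ighm levels were 10109 CPM (Olfr2+ 3) and 13654 CPM (Olfr2+ 4), against 12534, 5840 and 2216 CPM in Olfr2- 1, 3 and 4, so that Olfr2- 1 lay among the Olfr2+ samples.

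**Figure D3:**
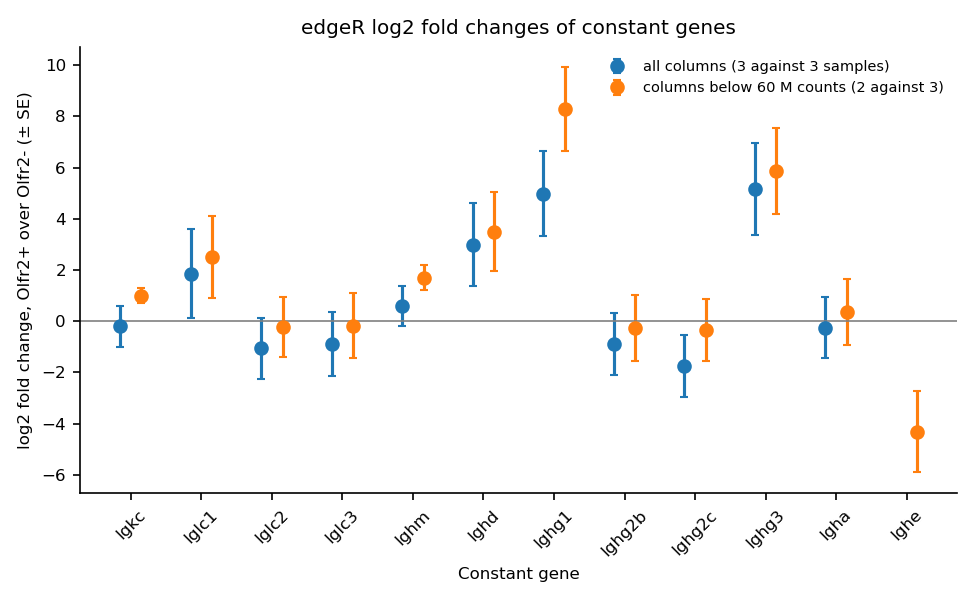
edgeR log2 fold changes of C genes (points, with standard errors as bars), Olfr2+ over Olfr2-, over all columns and over the columns below 60 M counts. Ighg1 and Ighg3 have the largest values, and Ighm is at 0.58 over all columns and 1.70 below 60 M.

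V segments carry the sequence that differs between B cell clones. Of the heavy chain and kappa V features that led columns, the 5 with the most counts in a column are shown by the last 60 bases of their transcripts, with capitals on the codon of the conserved cysteine that begins the hypervariable end of the domain.
Ighv1-53: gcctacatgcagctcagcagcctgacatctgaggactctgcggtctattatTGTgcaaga
Ighv8-8: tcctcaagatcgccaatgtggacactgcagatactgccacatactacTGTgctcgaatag
Ighv3-6: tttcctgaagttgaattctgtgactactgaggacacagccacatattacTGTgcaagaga
Igkv5-39: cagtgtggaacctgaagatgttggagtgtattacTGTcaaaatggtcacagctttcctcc
Igkv3-4: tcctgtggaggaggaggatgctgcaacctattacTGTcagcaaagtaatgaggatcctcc
Ighv1-53 was 94.0% identical to its nearest heavy chain V feature (Ighv1-74) and Igkv5-39 was 82.5% identical to its nearest kappa V feature (Igkv5-37), against a median of 91.7 and 91.6% for the loci. V counts are uncertain where reads of near copies are split, and 27 of 113 heavy and 22 of 100 kappa V features had a neighbour of at least 95% identity.

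Heavy chain and kappa V counts were few beside C counts. Kappa V counts were 0.059 to 10.6% of Igkc counts, and per kilobase of exon 0.0865 to 15.6%, with a median of 0.585%. The highest were Olfr2+ 3A and 3C. Heavy V counts were 0.0091 to 1.63% of heavy C counts. Lambda differed in single columns: its V counts were 146% of lambda C counts in Olfr2+ 3D, 35.7% in 2B and 24.4% in 3C. What follows describes the V reads that were counted, a small part of the antibody RNA.

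Igkv5-39 led the kappa V features in 11 of 15 columns and in all 6 numbered samples. Its counts were 1331, 489, 1686, 81 and 2078 in Olfr2- 1A, 3A, 3B, 4A and 4B, and 5253, 1546 and 5780 in Olfr2+ 3D, 4A and 4B. Over the columns below 60 M the 3 Olfr2+ columns took 85.2 to 97.9% of their kappa V counts from it and the Olfr2- columns 14.1 to 84.3%. In the deeper columns it had 7 to 65 counts except in 3A (9027) and 3C (925). The log2 fold change over all columns was 1.66 with SE 1.35 (edgeR adjusted p = 0.361), and -0.78 with limma-voom. Below 60 M the fold was 2.85 on this scale with SE 1.20 (edgeR adjusted p = 0.462), and the samples were at 155 and 109 CPM under the Olfr2+ label, above the 43.7, 25.6 and 29.2 CPM under Olfr2-.

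Other kappa V features led in 4 columns. Igkv3-4 led Olfr2- 3A with 2064 counts (59.6%), followed by Igkv6-25 with 636, and had 0 to 22 counts in the other 14 columns. It also led Olfr2+ 2B with 13 counts. Igkv3-2 led Olfr2- 4A with 127 counts (24.6%), and Igkv1-122 led Olfr2+ 2C with 22. Igkv12-46, second in Olfr2- 1A and Olfr2+ 3D with 80 and 62 counts, was at 2.62 and 1.83 CPM in them.

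Among heavy chain V features Ighv1-53 led in 5 columns. It had 5338 counts in Olfr2+ 3A (99.5% of heavy V counts), 649 in 3C (94.2%), 260 in 4A (74.3%) and 19 of 20 in 2D. In Olfr2- 3A it had 14, the same as Ighv3-3. Summed by sample its levels were 0.230, 0.400 and 0.487 CPM for the Olfr2- label, against 0.055, 22.0 and 3.87 CPM for Olfr2+. At 5.55 on the log2 scale, with SE 1.92 (edgeR adjusted p = 0.0843), it did not pass, and Olfr2+ sample 2 lay below all 3 Olfr2- samples.

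The Olfr2- samples had other leading heavy chain V features. Ighv8-8 and Ighv3-6 had 1542 and 1456 counts in Olfr2- 4A, together most of its 3413 heavy V counts, and at most 28 and 70 counts in any other column. Ighv1-36 led Olfr2- 1 with 92 of 625 counts, and Ighv9-4 led Olfr2- 3 with 47 of 569. Ighv6-3 was at 1.60 CPM in Olfr2- 4 and at or below 0.015 CPM in the other 5 samples. Lambda V reads were rare outside single columns. Iglv1 had 2321 counts in Olfr2+ 3D and 169 in 2B, and 0 to 32 elsewhere. Iglv3 had 498 counts in 3D and 422 in 3C, and 0 to 33 elsewhere. Iglv2 had counts in Olfr2+ 4A alone, at 0.080 CPM.

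**Figure D4:**
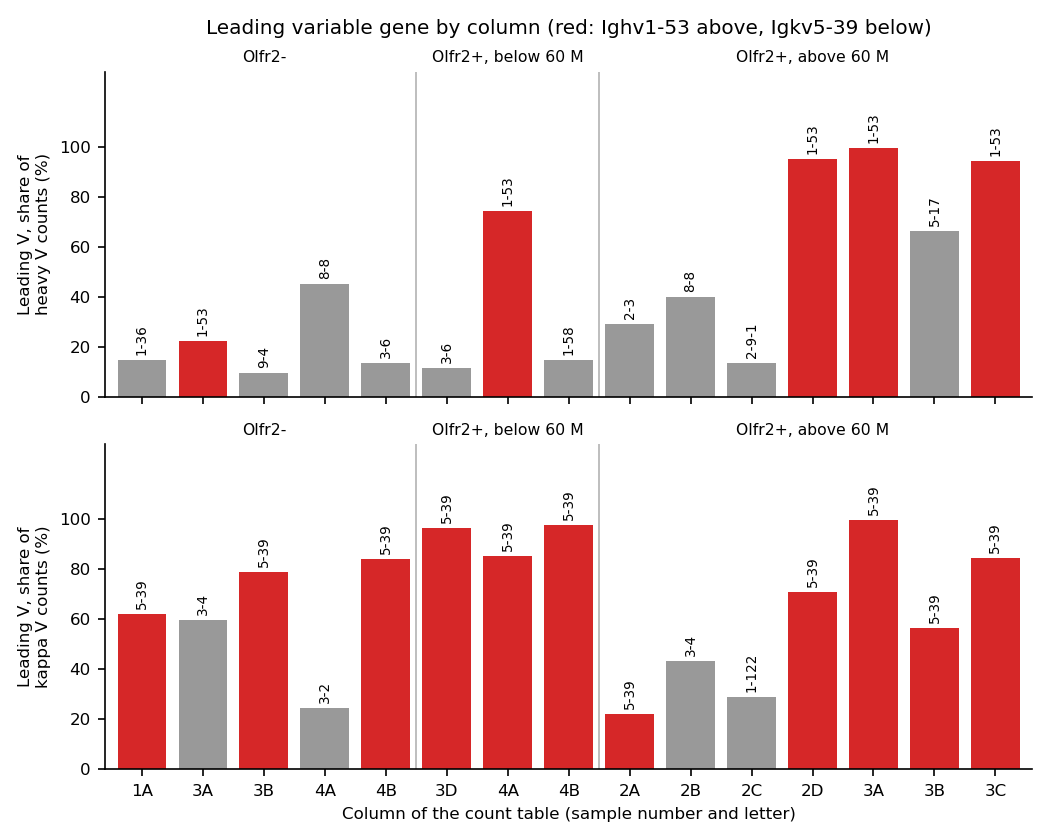
Share (%) of heavy chain V counts (upper bars) and kappa V counts (lower bars) taken by the leading V feature of each column, with its name above the bar without the Ighv or Igkv prefix; red marks Ighv1-53 and Igkv5-39. Ighv1-53 took 74.3 to 99.5% in 4 Olfr2+ columns, and Igkv5-39 led the kappa V counts in 11 of 15 columns.

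Whether V diversity separated the labels depended on the measure. The number of V features with at least 10 counts was 47, 40 and 61 in Olfr2- samples 1, 3 and 4, and 8, 17 and 9 in Olfr2+ samples 2, 3 and 4 (means 49.3 ± 10.7 and 11.3 ± 4.93, SD, n = 3 each). On this count the groups did not overlap, although the Olfr2+ samples 2 and 3 were the deepest in total counts, at 364 and 273 M. V counts themselves were 2796, 6168 and 7013 in Olfr2- and 503, 25266 and 8180 in Olfr2+. Thinned to 500 V counts each, the expected number of V features was 85.4, 53.0 and 66.7 in Olfr2-, and 74.9, 14 and 27.5 in Olfr2+, where sample 2 lay among the Olfr2- samples. At a minimum of 1 count the samples overlapped, at 132, 114 and 134 against 75, 104 and 121.

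The effective number of V features, the exponential of the Shannon entropy of their shares, weighs how evenly they were used. Over all V features it was 19.1, 8.56 and 11.8 in Olfr2- and 19.5, 3.28 and 2.01 in Olfr2+, so the labels overlapped. For the heavy chain it was 34.2, 9.26, 30.01, 3.81 and 28.3 in Olfr2- 1A, 3A, 3B, 4A and 4B. In Olfr2+ 3D, 4A and 4B it was 23.3, 3.79 and 24.4, and in the deeper columns it ran from 1.04 (3A) to 16.0 (2C). For kappa it was 2.66 to 17.1 in the Olfr2- columns and 1.27, 2.23 and 1.20 in Olfr2+ 3D, 4A and 4B. Kappa counts in those 3 columns were thus more uneven than in any Olfr2- column, which is the share of Igkv5-39 given above in another form. Columns 2A to 2D had 30 to 76 kappa V counts, too few for a firm value.

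Neither heavy chain nor kappa V use was clearly shared by repeats of a sample. The overlap of 2 columns, the sum over V features of the smaller of their shares, had a median of 7.12% for heavy chain V between columns of the same numbered sample (15 pairs). It was 8.63% between other columns of the same label (40 pairs) and 9.81% across labels (50 pairs). For kappa V the medians were 45.5, 27.6 and 31.6%, with ranges of 16.7 to 96.7%, 15.3 to 97.9% and 14.2 to 85.7%. Olfr2+ columns 2A to 2D held 10 to 60 heavy and 30 to 76 kappa V counts, so overlaps that involve them are imprecise. The kappa median of 45.5% among repeats was itself such a pair, 2B and 2D, with 30 and 41 kappa V counts. The pairs ran from 0 to 95% for the heavy chain within a label, so single pairs covered nearly the whole scale.

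J segments were counted as well, and whether their reads came from rearranged transcripts was not tested. The 5 that led in the columns with the most J counts are printed with the letters TTCGG (kappa) or TGGGG (heavy) in capitals, which open the conserved phenylalanine-glycine and tryptophan-glycine motifs of J segments. These letters, searched on the transcript strand, were in 4 of 5 kappa, 4 of 4 heavy and 4 of 5 lambda (TTCGG) J segments.
Igkj1: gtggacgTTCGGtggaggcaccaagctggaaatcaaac
Igkj4: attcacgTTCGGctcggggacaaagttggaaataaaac
Igkj5: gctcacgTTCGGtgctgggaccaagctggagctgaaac
Ighj1: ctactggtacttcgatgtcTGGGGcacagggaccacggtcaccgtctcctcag
Ighj3: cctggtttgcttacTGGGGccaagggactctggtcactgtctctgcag
In Olfr2+ 3A, the column where Ighv1-53 and Igkv5-39 each took over 99% of their V counts, Ighj1 had 100 of 101 heavy J counts and Igkj1 had 597 of 600 kappa J counts. Ighm took 99.4% of heavy C counts in the same column. In Olfr2- 3A, led by Igkv3-4, Igkj4 had 516 of 878 kappa J counts. In Olfr2- 4A, led by Ighv8-8 and Ighv3-6, Ighj3 had 157 of 228 heavy J counts. Igkj5 had 129 of 159 in Olfr2+ 4B. In Olfr2+ 2B Ighj1 had 103 of 107 heavy J counts, beside only 10 heavy V counts. Kappa J counts did not follow V counts in every column. Igkv5-39 had 5253, 1686 and 2078 counts in Olfr2+ 3D, Olfr2- 3B and Olfr2- 4B, beside 1, 0 and 2 kappa J counts. The kappa J segments also overlap Gm30211, a noncoding RNA gene on the same strand, though not its exons.

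Lambda J, D and leader-containing V segments were near the limit of detection. Iglj1 and Iglj2 had no counts, and Iglj3, Iglj4 and Iglj3p were at or below 0.066 CPM in every column. Of the 19 D segments 8 had any count. Ighd1-1 had 18 counts, all in Olfr2- 1A, and Ighd3-1 had 21. Of the 4 leader-containing features, Gm17472 had 43 counts in 6 columns, Gm20730 had 2 and the others 0.

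Many V features had a few counts in the shallower libraries, and so did other large gene families. At least 1 count was seen for 18.8 to 60.6% of the 218 V features in the Olfr2- columns, 28.4 to 38.1% in Olfr2+ 3D, 4A and 4B and 3.21 to 19.7% in the deeper columns. For the 155 immunoglobulin V pseudogenes, which encode no antibody, the ranges were 12.9 to 51.0% and 13.5 to 29.7%, and 2 to 31 of the 155 in the deeper columns. For 1102 olfactory receptor genes they were 26.2 to 65.5%, 24.0 to 47.2% and 4.26 to 32.7%, and for 144 T cell receptor V genes 9.72 to 36.8%, 11.1 to 25.7% and 1.39 to 17.4%. Detection of V features therefore moved between columns together with that of pseudogenes and olfactory receptor genes. Their part in the number of V features detected was not tested.

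**Figure D5:**
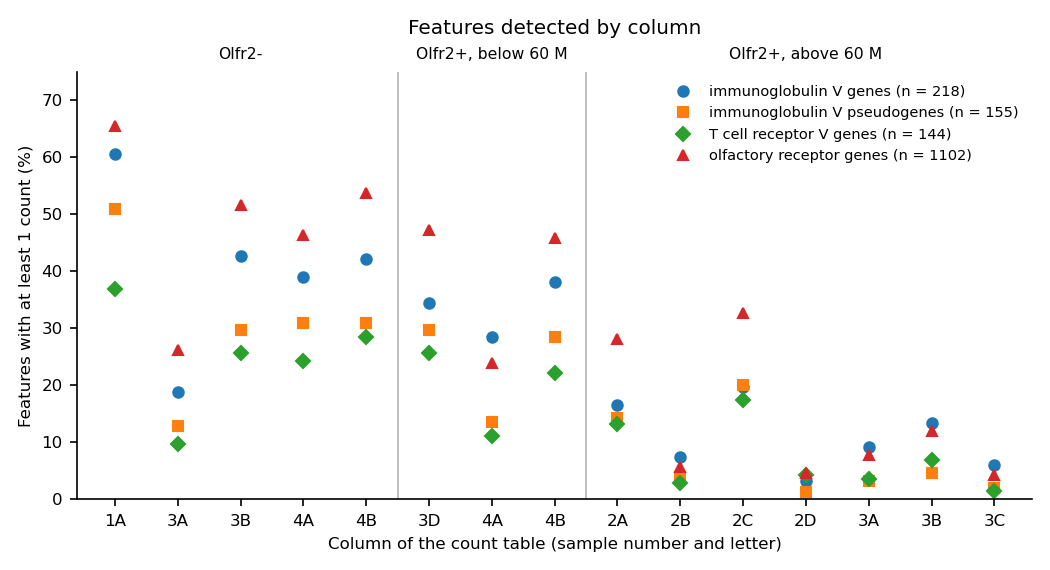
Percent of features with at least 1 count in each column for immunoglobulin V genes, immunoglobulin V pseudogenes, T cell receptor V genes and olfactory receptor genes. Olfr2- 1A is the highest of the 15 columns for all 4 classes, and each class is lowest in a deeper Olfr2+ column.

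B lineage RNA other than immunoglobulin was also present. The 14 B cell genes looked at (such as Ms4a1, which encodes CD20, and the transcription factors Pax5 and Ebf1) had counts for 14 in each Olfr2- column, 13 to 14 in Olfr2+ 3D, 4A and 4B and 11 to 14 in the deeper ones. Their sum was 101 to 567 CPM, 92.3 to 414 CPM and 11.2 to 332 CPM in these sets. The 12 plasma cell genes, among them Jchain and Mzb1, a chaperone of antibody assembly, summed to 2068 to 7022 CPM, 2329 to 7183 CPM and 124 to 984 CPM. The plasma cell sum was lower in all deeper columns, while the B cell sums overlapped. Jchain made up most of the plasma cell sum in the other 8 columns. In the deeper columns it was a small part, at 16.0 to 156 CPM. Single plasma cell genes went different ways: Mzb1 was at 0.228 to 4.74 CPM in the deeper columns and 13.4 to 226 CPM in the other 8, but Txndc5, a folding enzyme of the endoplasmic reticulum, was at 61.0 to 375 CPM against 10.7 to 75.1 CPM. Xbp1, a transcription factor of secretory cells, overlapped at 35.0 to 614 and 217 to 1311 CPM. None of 13 B cell or 12 plasma cell genes tested passed in either direction over all columns. Their median log2 fold changes were 1.52 and 1.06, beside 0.24 over all features.

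Jchain had the highest mean level of the plasma cell genes over the 6 samples. It was at 4919, 4523 and 4590 CPM in the Olfr2- samples and 25.6, 316 and 5087 CPM in Olfr2+ samples 2, 3 and 4. Its log2 fold change was -0.56 (SE 0.89). Mzb1 was at 42.4, 92.9 and 47.0 CPM against 0.355, 5.67 and 132 CPM. Ms4a1 was at 21.0, 32.5 and 12.9 CPM against 0.223, 25.8 and 73.3 CPM. For these 3 genes Olfr2+ sample 2 was the lowest and sample 4 the highest of the 6, but other abundant genes of the lists had another order. Txndc5 was at 19.9, 30.3 and 18.5 CPM in Olfr2- and 184, 166 and 62.1 CPM in Olfr2+, and Ebf1 at 93.3, 24.1 and 22.4 CPM against 87.7, 133 and 41.3 CPM. The part of B lineage cells in the immunoglobulin values was not tested.

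The genes that assemble immunoglobulin were low in most samples. Rag1 and Rag2, the recombinase of V(D)J joining, were at 2.06 ± 1.55 and 1.45 ± 1.499 CPM in Olfr2- and 0.109 ± 0.067 and 0.029 ± 0.039 CPM in Olfr2+ (SD, n = 3 each). Of the 6 genes of B cell precursors and receptor assembly 4 were tested and none passed, with Rag1, Rag2 and Igll1 lower in all 3 Olfr2+ samples than in all 3 Olfr2- samples, a pattern that 29.8% of all features had. The other gene tested, Dntt, the polymerase that adds bases at the joints, had a log2 fold change of 1.57 (SE 1.61). Its samples were at 2.00, 1.39 and 0.392 CPM in Olfr2- and 0.016, 5.01 and 0.252 CPM in Olfr2+. In Olfr2+ column 3C only 1 of the 6 genes had a count, at 17.8 CPM, the highest sum of any column. None of 4 germinal centre genes passed. None of 8 T cell genes passed either.

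Signalling and binding partners of antibody were measured in the same fit. Of 14 genes of the B cell receptor pathway 1 rose and 13 did not pass, with a median log2 fold change of 1.76, where 1.12% of all features rose and their median was 0.24. The gene that rose was Cd81, a membrane tetraspanin that many cell types make, at 5.12 on the log2 scale with SE 1.06 (edgeR adjusted p = 0.0283). Its samples had 41.7, 83.9 and 84.998 CPM in Olfr2- and 1553, 1227 and 67.2 CPM in Olfr2+, so that Olfr2+ sample 4, which has no deeper column, lay among the Olfr2- samples. Of 12 receptors tested that bind immunoglobulin 1 rose and 11 did not pass, with a median of 1.02 beside the same background. That was Fcgrt, the neonatal Fc receptor that recycles IgG, at 4.18 on the log2 scale with SE 1.09 (edgeR adjusted p = 0.0487). It was at 14.4, 130 and 84.2 CPM against 971, 593 and 78.7 CPM. Fcer1g, the shared signalling chain of Fc receptors, was at 960, 1087 and 971 CPM against 367, 450 and 1147 CPM. Of the 6 macrophage genes Lyz2 alone passed (log2 fold change 2.73, edgeR adjusted p = 0.0494). Its samples were at 716, 1669 and 3831 CPM in Olfr2- and 7777, 6989 and 1794 CPM in Olfr2+, so the labels overlapped. No gene of these lists passed below 60 M, where 0 of all 29989 features did.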

How the data were processed

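The deposited values were whole-number counts per annotated feature, not normalized, from low-input Smart-Seq2 libraries. Per the submitters' processing notes, DRAGEN, DESeq2 1.34, STAR 2.7.1 and the build GRCm39 had roles that are not named. How strand was treated, and which annotation was counted, is not given in the sources used here. The supplied GENCODE M21 annotation of GRCm38 held 98.9% of the identifiers, and 264 of the 268 immunoglobulin identifiers had the same version, so no coordinates are given.

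Levels are counts per 1e+06 of the column total. Summed counts per numbered sample went into edgeR 4.0.16 for its quasi-likelihood F test (R 4.3.3; TMM scaling, expression filter by group, Benjamini-Hochberg over all features, adjusted p under 0.05). TMM factors were 1.34 to 1.66 in Olfr2- and 0.485 to 0.868 in Olfr2+. The standard error was taken from the F statistic. Alternatives used DESeq2 1.42.0 and limma-voom (limma 3.58.1), other scalings, filters and units, a block on sample number, and fits without each sample in turn. The fits were also run on simulated data with planted changes, and how many were recovered is not given here. A lack of calls, as in the columns below 60 M counts, therefore does not show a lack of change. A division at 60 M counts sorts the columns by depth.

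The features, gene lists and depth division were chosen with earlier results of these data known. Named features are all C genes, all lambda V and J features, the leading heavy and kappa V features by numbered sample and by mean level (5 each), leading J and D features, features past the test, and list genes past the test or among the 4 most abundant. V features that led a single column were named after their values were seen.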

Additional observations from a re-analysis of the deposited data

Results flagged for a closer look

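In 27 groups of columns (13 C genes and the sum of all immunoglobulin features in the 5 Olfr2- and 10 Olfr2+ columns, without Iglc4 in Olfr2+, which was 0 throughout) the gap between an extreme column and its nearest neighbour was compared with the whole range, and 6 exceeded Dixon's critical value. The critical values flag about 1 in 20 groups by chance only for independent, normally distributed values. These columns include repeats and, in Olfr2+, both depth sets, so that rate need not hold here. A gene with counts in a single column, as Iglc4 in Olfr2-, is always flagged. Ighg2b was at 5108.71 CPM in Olfr2- 4B, with the next column at 1398 CPM. Ighg1 was at 2168.72 CPM in Olfr2+ 3D (next 22.0 CPM) and Ighg3 at 1519.54 CPM in Olfr2+ 4B (next 19.4 CPM). Iglc3 was at 192.36 CPM in Olfr2+ 4B (next 75.9 CPM), Iglc1 at 34.9457 CPM in Olfr2+ 4A (next 15.4 CPM) and Iglc4 at 0.218297 CPM in Olfr2- 4B, where the other Olfr2- columns had no counts. All 4 flags among the Olfr2+ columns fell in 3D, 4A or 4B, the columns below 60 M counts. Total immunoglobulin was 37860 to 61105 CPM in those columns and 241 to 5565 CPM in the deeper ones. The place of the flags therefore adds nothing to that difference.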

How the results depend on the processing

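Of the immunoglobulin features, 0 were called higher and 1 lower over all columns. Without a filter there were 3 and 3 of 244 (642 and 239 of all 42769 features), with library names as samples 0 and 3 of 36 (885 and 683 of 26043), and with DESeq2 4 and 14 of 101 (3893 and 2558 of 31244). None was called lower at a mean of at least 10 CPM, in the columns below 60 M counts, with the depth set as a covariate or with limma-voom (0 in each). Leaving out 1 sample gave 0 to 1 higher and 0 to 0 lower; Ighg3 passed without Olfr2+ sample 3, at 5.87. In the columns below 60 M counts, with alternatives chosen after seeing the data, the 0 and 0 became 5 and 2 of 240 without a filter (150 and 46 of all 42353) and 6 and 1 of 16 with DESeq2 (996 and 210 of 13333). With the sample number as a replicate block 0 and 0 were called, with 2 and 0 of all features. Samples numbered 3 and 4 had correlations of deviations across labels of 0.013 and -0.07. With 3 samples per label and deeper columns in Olfr2+ alone, these values cannot show whether samples with the same number share a source. The block turned Iglc1 to -0.21 and Igkv12-46 to 0.39.

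Log2 fold changes that turned were these. Igkc turned to 1.00 below 60 M, 0.92 with the covariate, and 0.08, 0.48 and 0.33 without Olfr2- 3, Olfr2+ 2 or Olfr2+ 3. Igha turned to 0.36 and 0.35 in the same settings, and to 0.13, 0.33, 0.38 and 0.38 without Olfr2- 3, Olfr2- 4, Olfr2+ 2 or Olfr2+ 3. Ighm turned to -0.31 on library totals, -0.70 with limma-voom and -0.98 without Olfr2+ 4. Without 1 sample Igkc ran from -2.74 to 0.48, Igha from -5.68 to 0.38, Ighm from -0.98 to 1.29, Ighg2b from -5.87 to 0.36, Ighg3 from -1.43 to 5.88, Iglc1 from -4.25 to 2.76 and Iglv3 from -0.93 to 4.42. With limma-voom Iglc1 was -1.27 and Igkv5-39 -0.78, and Igkv12-46 was 0.83 below 60 M and 0.62 with the covariate. For single features 280 values kept their direction and side of the threshold. The cause of the turns was not tested.

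Mean immunoglobulin became 25100 CPM in Olfr2- and 24521 CPM in Olfr2+ with TMM library sizes, in place of 37499 and 20680 CPM, and 45742 and 25287 CPM of protein-coding counts. Leaving out 1 sample gave 36056 to 39646 CPM in Olfr2- and 3600 to 30863 CPM in Olfr2+, the lowest without sample 4. V features numbered 127 and 100.0 at 1 count and 3.33 and 2.67 at 100 counts, and 43.5 to 54.0 and 8.5 to 13 without 1 sample. Levels below 3 counts in a column cannot be told from 0.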
